A study of Mus musculus with 24 samples.

Results

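The genes described are *Acod1* and 8 genes of the citrate cycle or its side branches, namely *Cs*, *Idh1*, *Idh2*, *Idh3b*, *Sdha*, *Sdhb*, *Slc25a1* and *Acly*. They were chosen by gene symbol from the 56691 genes of each expression table, and all 9 were present in both tables and passed the filter on low values. The libraries came from RAW264.7 cells, a mouse macrophage-like leukemia line, and from bone marrow-derived macrophages (BMDMs) of 8-week-old male C57BL/6 mice. There were 24 libraries, 3 in each of 8 groups. Wild-type and *Olfml3* knockout cells of both kinds were given PBS or 100 ng/mL lipopolysaccharide (LPS, a component of Gram-negative bacteria) for 4 h. The RAW264.7 knockout was made by lentiviral delivery of guide RNAs and isolation of single-cell clones, and the knockout BMDMs came from *Olfml3*-/- mice made with CRISPR-Cas9. The labels do not say which clone was sequenced, and in RAW264.7 a difference of genotype cannot be told apart from one between clones. The study calls the libraries of a group biological replicates, and whether they came from separate cultures or animals is not given in its methods or the labels, so the p-values are read as measuring the spread between these libraries.

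The citrate cycle burns acetyl groups in the mitochondrion and supplies carbon for synthesis. *Cs* encodes citrate synthase, which joins acetyl-CoA and oxaloacetate into citrate. *Acod1* encodes aconitate decarboxylase, also called IRG1, which diverts cis-aconitate from the cycle to itaconate, a metabolite known for its accumulation in macrophages given LPS and for its inhibition of succinate dehydrogenase. Isocitrate is oxidised by the NAD-dependent IDH3 complex, of which *Idh3b* encodes a subunit, and by the NADP-dependent enzymes IDH1 in the cytosol and IDH2 in the mitochondrion. *Sdha* and *Sdhb* encode the flavoprotein and iron-sulfur subunits of succinate dehydrogenase. *Slc25a1* encodes the carrier that exports citrate from the mitochondrion, and *Acly* the enzyme that cleaves it in the cytosol to acetyl-CoA for lipid synthesis.

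*Acod1* rose and *Idh1* and *Idh2* fell with LPS in both cell types and genotypes by limma on FPKM, the fall of *Idh2* reaching 1.5-fold by edgeR on counts in 1 of the 4 comparisons, and the sequences before their starts are shown for that reason. *Acod1* lies on chromosome 14 (GRCm38, 103046977 to 103056573, plus strand), *Idh1* on chromosome 1 (65158616 to 65186500, minus strand) and *Idh2* on chromosome 7 (80094846 to 80115392, minus strand) by the GENCODE M21 annotation. The identifiers of all 9 genes matched that annotation (ENSMUSG00000022126 for *Acod1*, ENSMUSG00000025950 for *Idh1*), while the positions written in the tables matched it for 0 of 9, so that the annotation's positions are given. The 250 bases before the RefSeq start (GRCm38.p6) are printed 5′ to 3′ on the gene's strand, at chr14:103046762-103047011 on the plus strand for *Acod1*, and on the minus strand at chr1:65186480-65186729 for *Idh1* and chr7:80115351-80115600 for *Idh2*. The RefSeq and GENCODE starts differ, so that the last 35 bases of the *Acod1* window, 21 of the *Idh1* window and 42 of the *Idh2* window lie inside the GENCODE gene. Capitals mark matches to the patterns named below.
Acod1: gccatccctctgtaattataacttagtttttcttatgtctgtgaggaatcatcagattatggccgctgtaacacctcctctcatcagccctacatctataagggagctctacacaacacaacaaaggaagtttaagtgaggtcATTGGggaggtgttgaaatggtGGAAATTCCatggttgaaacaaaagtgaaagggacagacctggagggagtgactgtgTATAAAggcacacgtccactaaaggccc
Idh1: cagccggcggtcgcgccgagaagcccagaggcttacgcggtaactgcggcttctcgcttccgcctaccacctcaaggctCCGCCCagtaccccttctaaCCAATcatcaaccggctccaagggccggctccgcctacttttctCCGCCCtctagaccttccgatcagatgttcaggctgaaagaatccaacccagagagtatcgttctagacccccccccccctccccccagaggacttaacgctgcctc
Idh2: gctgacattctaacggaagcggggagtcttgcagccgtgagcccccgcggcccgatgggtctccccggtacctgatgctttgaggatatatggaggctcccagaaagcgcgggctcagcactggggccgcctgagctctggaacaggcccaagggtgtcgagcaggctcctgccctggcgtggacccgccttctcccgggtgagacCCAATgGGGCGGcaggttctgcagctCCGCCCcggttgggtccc

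The patterns were chosen after the sequences had been seen, and were searched on both strands in the same 250 bases of all 32851 RefSeq promoter records. Distances are from the RefSeq start, and of the other windows those of *Idh3b*, *Sdha* and *Sdhb* also run 96, 40 and 68 bases into the GENCODE gene. The TATA box TATAAA began 28 bases before the RefSeq start of *Acod1*, which is inside the gene as GENCODE draws it, and was in no other window of the 9, against 12.4% of all windows. GGAANTTCC, which makes up the inner bases of many NF-κB sites, began 85 bases before that start, was in no other window of the 9 and was in 0.813% of all windows. The GC box GGGCGG was in 6 of the 9 (*Cs*, *Idh1*, *Idh2*, *Sdhb*, *Slc25a1* and *Acly*) and in 32.7% of all. CCAAT was in 8 of the 9, *Acly* being without it, and in 33.8% of all. The site of NRF1, a regulator of mitochondrial genes, matched 3 times in the *Sdha* window and in no other of the 9, against 3.74% of all, and the core of interferon response elements was in none of the 9 and in 2.98% of all. The *Acod1* window had 2 CpG dinucleotides, and the windows of the other 8 genes had between 9 (*Sdhb*) and 25 (*Slc25a1*), against a median of 6 over all windows. A match is a description of the letters and no evidence of binding.

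The libraries held 11638273 to 16478616 counts (RAW264.7) and 17121240 to 22873094 counts (BMDMs). *Olfml3* was at 0.53 to 0.65 FPKM in wild-type BMDMs with PBS and 0.24 to 0.25 with LPS, and at most 0.03 in knockout BMDMs. In RAW264.7 it went against the labels, at 0.13 to 0.29 FPKM in wild-type libraries, 0.65 to 1.19 in the PBS libraries labelled knockout and 18.3 to 18.9 in the LPS libraries labelled knockout, so the direction of a genotype difference there rests on the labels. One RAW264.7 library, replicate 1 of the PBS group labelled knockout, stood apart from its group, with summed FPKM of 356156 against 296109 and 295256 for its partners and 357349 to 361580 in wild type with PBS. The 8 macrophage markers (*Adgre1*, *Itgam*, *Csf1r*, *Cd68*, *Fcgr1*, *Mertk*, *Lyz2* and *Ptprc*) summed to 11898 to 17692 FPKM in BMDMs and to 2745 to 2956 in wild-type RAW264.7 libraries, but to 856.6 to 1298 in those labelled knockout. Most of that gap was *Lyz2*, at 2038.5 to 2264.2 FPKM in wild type and 259.4 to 433.2 in those labelled knockout, while with LPS *Cd68* was at 448.9 to 463.0 against 322.6 to 340.3, *Adgre1* at 15.6 to 17.0 against 12.6 to 14.6, and *Ptprc* was higher in those labelled knockout (26.8 to 27.2 against 16.5 to 17.9). *Mertk* had no counts in any RAW264.7 library, and the part of these markers in the RAW264.7 genotype differences was not tested. The T cell markers *Cd3d*, *Cd3e* and *Cd8a*, the neutrophil marker *Ly6g* and the erythroid *Hba-a1* and *Hbb-bs* had no counts in BMDMs. Other markers of cell types outside the macrophage list had some, namely *Cd4* at 3.30 to 8.58 FPKM, the neutrophil list at 5.33 to 8.61 in sum, with *S100a8* and *S100a9* the most abundant, and the fibroblast gene *Col1a1* at 0.14 to 0.85. In bulk samples fewer cells of a type and less RNA per cell cannot be told apart.

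FPKM is a count per kilobase of exon, scaled to library size, and so can be compared between genes. A gene passed the test where its Benjamini-Hochberg adjusted p in limma, fitted on log2(FPKM + 0.1) over all 12 libraries of a cell type and adjusted over all genes tested, was under 0.05 and its fold change at least 1.5. The added 0.1 understates the change of genes with low FPKM. LPS moved the median of all expressed genes (FPKM of at least 1 in a group) by -0.20 and -0.22 on the log2 scale in wild-type RAW264.7 libraries and those labelled knockout, and by -0.76 and -0.65 in wild-type and knockout BMDMs. For the LPS comparisons the log2 fold changes of *Idh1* and *Idh2* are therefore also given relative to that median. The limma calls are set beside a test on counts with edgeR, whose TMM scaling sets the bulk of genes to no change.

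*Acod1* was the least abundant of the 9 genes without LPS and the most abundant with it. With PBS it was at 1.94, 2.86 and 3.48 FPKM in wild-type RAW264.7 libraries, 0.53, 0.55 and 1.17 in those labelled knockout, 1.20, 1.39 and 1.27 in wild-type BMDMs and 1.39, 1.67 and 2.02 in knockout BMDMs. These are 23 to 121 counts per library. With LPS it was at 2211, 2201 and 2188 FPKM in wild-type RAW264.7 libraries, 2153, 2114 and 2122 in those labelled knockout, 1863, 1880 and 1936 in wild-type BMDMs and 1953, 1938 and 1941 in knockout BMDMs, or 65732 to 115975 counts. No LPS library overlapped any PBS library.

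**Figure D1:**
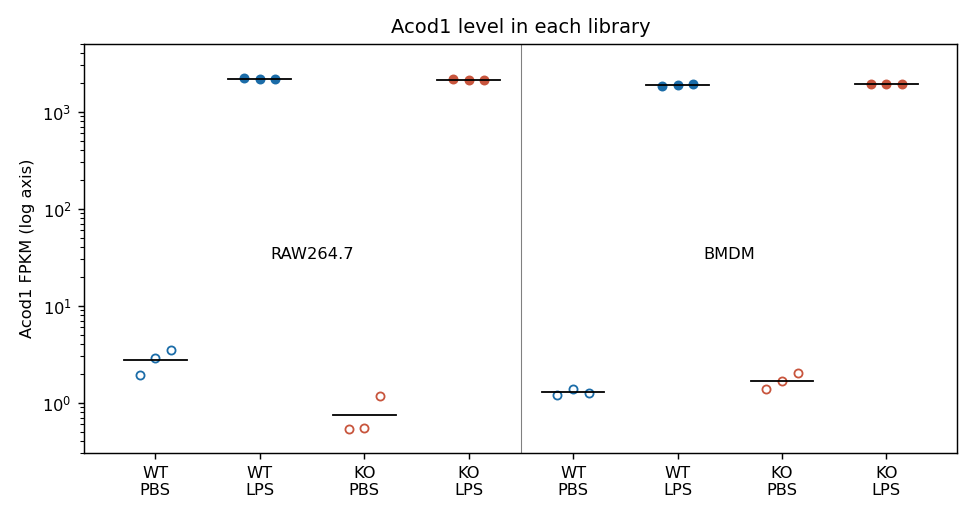
*Acod1* in each library, as FPKM on a log axis, by cell type, genotype (WT, wild type in blue; KO, labelled knockout in red) and treatment (open points PBS, filled points LPS), with a line at each group's mean. All 12 LPS libraries lie between 1863 and 2211 FPKM and all 12 PBS libraries between 0.53 and 3.48.

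*Acod1* was the one member called higher with LPS in all 4 comparisons by limma. Its log2 fold change was 9.63 (SE 0.27, adjusted p = 9.46e-09) in wild-type RAW264.7 libraries, where 5.80% of all 26740 genes tested were called higher, and 11.37 (SE 0.27, adjusted p = 2.48e-09) in those labelled knockout, where 7.45% were. In BMDMs it was 10.42 (SE 0.11, adjusted p = 8.40e-12) in wild type and 10.10 (SE 0.11, adjusted p = 7.14e-12) in knockout, against 7.94% and 8.02% of all 26973 genes called higher. The ratio of mean FPKM was 797.1 and 2839.6 in RAW264.7 and 1471.1 and 1148.0 in BMDMs, in the same order. With LPS *Acod1* took 0.554% to 0.580% of all counts in RAW264.7 and 0.489% to 0.512% in BMDMs, and it ranked between 8 and 10 of all genes by FPKM in RAW264.7 and between 18 and 20 in BMDMs.

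Between genotypes, *Acod1* was lower in RAW264.7 libraries labelled knockout without LPS and did not pass the test elsewhere. There its log2 difference was -1.79 (SE 0.27, adjusted p = 0.00277, limma) with PBS, the groups not overlapping, and -1.62 (adjusted p = 0.00263) without the library that stood apart. Compared on the 2 groups alone the same difference had an adjusted p of 0.0636. With LPS the 3 libraries labelled knockout lay below the 3 wild-type libraries, at 2129.7 ± 20.8 against 2199.9 ± 11.8 FPKM (SD, n = 3), a log2 difference of -0.05 (SE 0.27) that did not pass. The limma SE, here and in BMDMs, is fitted over all 4 groups of a cell type, including PBS libraries with few *Acod1* counts. It therefore does not measure the spread of the LPS libraries alone. In BMDMs with PBS, where the highest wild-type library and the lowest knockout library were both at 1.39 FPKM, the log2 difference was 0.36 (SE 0.11, adjusted p = 0.137). With LPS the knockout BMDMs were at 1944.0 ± 8.16 FPKM and wild type at 1892.8 ± 38.0 (SD, n = 3), a log2 difference of 0.04 (SE 0.11, adjusted p = 0.959), which edgeR on counts gave as -0.10 (adjusted p = 0.0147).

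*Idh1*, the cytosolic NADP-dependent isocitrate dehydrogenase, fell most with LPS of the 9 genes in all 4 comparisons. In wild-type RAW264.7 libraries it went from 61.1, 61.5 and 58.2 FPKM with PBS to 25.3, 25.0 and 27.2 with LPS. In those labelled knockout it went from 38.8, 36.3 and 34.3 to 9.71, 10.0 and 9.58. In wild-type BMDMs it went from 106.5, 100.5 and 103.9 FPKM to 23.2, 20.9 and 23.01, and in knockout BMDMs from 106.8, 102.2 and 105.0 to 21.6, 22.6 and 21.7. The PBS and LPS libraries were apart in each of these comparisons, and libraries of the 2 BMDM genotypes overlapped under both treatments.

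The log2 fold changes of *Idh1* with LPS were -1.22 (SE 0.07, adjusted p = 1.51e-06) and -1.89 (SE 0.07, adjusted p = 5.45e-08) in wild-type RAW264.7 libraries and those labelled knockout, and -2.21 (SE 0.05, adjusted p = 4.14e-10) and -2.25 (SE 0.05, adjusted p = 3.81e-10) in wild-type and knockout BMDMs, all by limma. Relative to the median of all expressed genes they were -1.02, -1.67, -1.45 and -1.59. By edgeR on counts they were -1.0, -1.66, -1.44 and -1.58, and *Idh1* passed under each of the 12 ways the LPS comparisons were computed on all libraries.

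*Idh1* also differed between RAW264.7 genotypes. It was lower in libraries labelled knockout by -0.72 (SE 0.07, adjusted p = 0.000246, limma) with PBS and by -1.39 (SE 0.07, adjusted p = 3.34e-06) with LPS, with no overlap. It was -0.77 with PBS without the library that stood apart, whose 38.8 FPKM lay with its group. The difference of these differences, the genotype by LPS interaction, was -0.67 (adjusted p = 0.011), so the fall with LPS was larger in the libraries labelled knockout. In BMDMs the genotype difference was 0.01 (SE 0.05) with PBS and -0.02 (SE 0.05) with LPS, neither past the test. With LPS the lowest *Idh1* level of the 8 groups was that of the labelled knockout in RAW264.7, at 9.77 ± 0.226 FPKM (SD, n = 3), and the highest without LPS were those of the BMDMs, at 103.6 ± 3.02 in wild type and 104.7 ± 2.30 in knockout.

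*Idh2*, the mitochondrial NADP-dependent enzyme, was more abundant in RAW264.7 than in BMDMs, the reverse of *Idh1* without LPS. In wild-type RAW264.7 libraries it went from 118.9, 123.2 and 119.9 FPKM with PBS to 78.0, 75.8 and 75.5 with LPS, and in those labelled knockout from 104.1, 87.6 and 75.8 to 42.8, 49.1 and 46.9. In wild-type BMDMs it went from 29.1, 28.6 and 30.9 to 14.7, 14.5 and 14.5 FPKM, and in knockout BMDMs from 34.3, 35.1 and 34.4 to 16.7, 14.9 and 16.6. LPS and PBS libraries were apart throughout. The falls were -0.66, -0.93, -1.01 and -1.10 on the log2 scale in that order (adjusted p = 0.00161, 0.000127, 1.09e-07 and 7.04e-08, limma), and -0.46, -0.72, -0.25 and -0.45 relative to the median of all expressed genes. By edgeR on counts the fold change reached 1.5 in RAW264.7 libraries labelled knockout (-0.71) and in no other of the 4 comparisons (-0.43, -0.25 and -0.44), though each had an adjusted p of at most 0.00307.

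Between RAW264.7 genotypes *Idh2* was lower in libraries labelled knockout with LPS by -0.73 (SE 0.11, adjusted p = 0.00194, limma), without overlap. With PBS the difference was -0.45 (SE 0.11, adjusted p = 0.0325) and under 1.5-fold, and -0.57 (adjusted p = 0.000657) without the library that stood apart. In BMDMs the knockout libraries lay above wild type under both treatments, by 0.23 (SE 0.06, adjusted p = 0.0571) with PBS and 0.14 (SE 0.06, adjusted p = 0.131) with LPS, neither past the test.

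**Figure D2:**
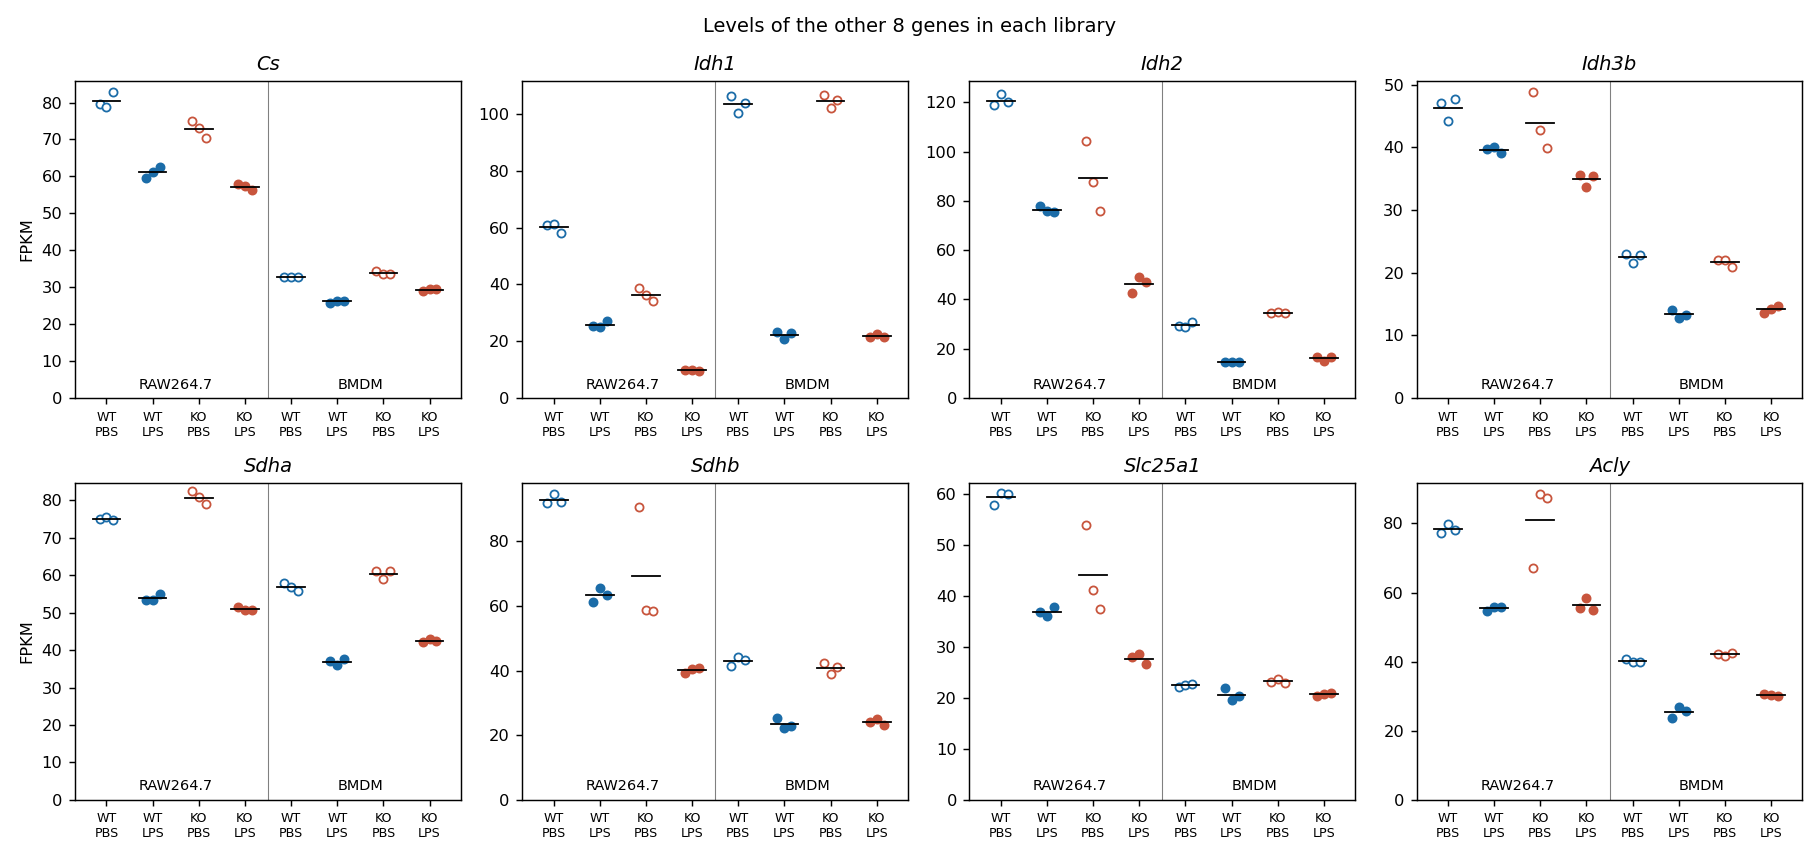
Levels of the 8 genes other than *Acod1* in each library, as FPKM from 0, by cell type, genotype (WT, wild type in blue; KO, labelled knockout in red) and treatment (open points PBS, filled points LPS), with a line at each group's mean. *Idh1* has its LPS libraries far under its PBS libraries in both cell types, and in RAW264.7 with PBS 1 labelled-knockout point of *Sdhb* (90.7) lies near the wild-type libraries (92.0 to 94.6) while its 2 partners are at 58.6 and 58.9.

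Of the subunits of succinate dehydrogenase, *Sdhb* passed the test between RAW264.7 genotypes with LPS and *Sdha* did not, and the difference between these genes was not tested. *Sdhb* went from 92.0, 94.6 and 92.3 FPKM with PBS to 61.2, 65.6 and 63.3 with LPS in wild-type RAW264.7 libraries, and from 90.7, 58.9 and 58.6 to 39.1, 40.5 and 40.8 in those labelled knockout. *Sdha* went from 74.7 to 75.6 down to 53.3 to 55.0 FPKM, and from 79.1 to 82.4 down to 50.7 to 51.6. With LPS *Sdhb* was lower in the libraries labelled knockout by -0.66 (SE 0.15, adjusted p = 0.0126, limma), and *Sdha* by -0.08 (SE 0.06, adjusted p = 0.398), which did not pass. With PBS *Sdhb* differed by -0.45 (SE 0.15, adjusted p = 0.0772), which did not pass, and by -0.66 (adjusted p = 2.27e-05), which passed, without the library that stood apart.

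In BMDMs *Sdhb* lay between 39.1 and 44.3 FPKM in the 6 PBS libraries and between 22.3 and 25.2 in the 6 LPS libraries, and *Sdha* between 55.9 and 61.2 and between 35.9 and 42.9. The 2 genotypes overlapped for *Sdhb* under both treatments. *Sdha* was higher in knockout BMDMs with LPS by 0.20 (SE 0.04, adjusted p = 0.00705, limma) with the groups apart, a difference under 1.5-fold and so not called, and by 0.06 by edgeR on counts (adjusted p = 0.191).

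None of *Cs*, *Slc25a1* and *Acly* passed the test between genotypes by limma over all libraries. *Cs* lay between 70.5 and 83.0 FPKM in RAW264.7 with PBS, between 56.4 and 62.7 with LPS, between 32.7 and 34.3 in BMDMs with PBS and between 25.8 and 29.6 with LPS. *Slc25a1* was at 57.9 to 60.3 FPKM in wild-type RAW264.7 libraries with PBS and 36.1 to 38.0 with LPS, at 54.0, 41.2 and 37.6 in those labelled knockout with PBS and at 26.7 to 28.6 with LPS, and it stayed between 19.7 and 23.6 in all 12 BMDM libraries. *Acly* was at 77.2 to 79.7 FPKM in wild-type RAW264.7 libraries with PBS, at 67.0, 88.6 and 87.5 in those labelled knockout, and at 54.8 to 58.3 in both with LPS. In BMDMs *Acly* was at 39.8 to 42.4 FPKM with PBS, 23.7 to 26.8 in wild type with LPS and 30.1 to 30.5 in knockout with LPS.

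*Idh3b* lay between 39.9 and 48.8 FPKM in RAW264.7 with PBS and between 33.7 and 40.0 with LPS, and between 21.0 and 23.1 and between 12.7 and 14.8 in BMDMs. It overlaps *Nop56* on the opposite strand, which had 5344 to 8017 counts in RAW264.7 and 381 to 1621 in BMDMs. Whether the counting used strand is not given in the sources used here, so reads from the stretch that both genes share may not have been told apart. The genes that overlap the other members had at most 17 counts.

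By limma 3 of the 9 genes were called lower with LPS in wild-type RAW264.7 libraries (*Idh1*, *Idh2* and *Slc25a1*), where 12.5% of all genes were, and 5 of 9 in those labelled knockout (these with *Sdha* and *Sdhb*), where 14.6% were. Without the library that stood apart *Sdhb* (-0.55) and *Slc25a1* (-0.50) were no longer called there and *Acly* (-0.64) was. In BMDMs 6 of 9 were called lower in wild type (*Idh1*, *Idh2*, *Idh3b*, *Sdha*, *Sdhb* and *Acly*). In knockout BMDMs 4 of 9 were (*Idh1*, *Idh2*, *Idh3b* and *Sdhb*). But 32.5% and 30.9% of all genes were called lower in BMDMs, wild type first. The shares of all genes, here and for RAW264.7, include genes of low level. When only genes reaching 1 FPKM in 3 or more libraries were tested, 6487 and 5999 of 11492 were called lower in BMDMs, wild type first. In RAW264.7 it was 2931 and 3351 of 12290. The calls of the 9 genes stayed the same. The median log2 fold change of the 8 genes other than *Acod1* was -0.53 and -0.66 in RAW264.7, wild type and labelled knockout, against -0.20 and -0.22 for all expressed genes, and -0.70 and -0.56 in BMDMs, against -0.76 and -0.65.

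Set against the bulk of genes, the BMDM falls other than that of *Idh1* were small or turned into rises. By edgeR on counts 1 of 9 was called lower in wild-type BMDMs (*Idh1*) where 30.8% of 14122 genes were, and 2 of 9 were called higher (*Acod1*, and *Slc25a1* at 0.65, adjusted p = 5.94e-13) where 25.1% were. In knockout BMDMs 1 of 9 was called lower (*Idh1*; 29.5% of all) and 1 of 9 higher (*Acod1*; 24.0% of all), with *Slc25a1* at 0.50. *Cs* was at 0.45 and 0.46 in wild-type and knockout BMDMs by edgeR and at -0.32 and -0.21 by limma, in each case under 1.5-fold. *Sdha* was at 0.15 and 0.16 by edgeR, *Acly* at 0.11 and 0.20 and *Idh3b* at 0.02 and 0.06, where limma on FPKM gave values below 0 for all 3.

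In RAW264.7 the edgeR test called 1 of 9 lower in wild-type libraries (*Idh1*; 16.4% of 13757 genes) and 2 of 9 in those labelled knockout (*Idh1* and *Idh2*; 20.2%). It called 1 of 9 higher in each, *Acod1*, against 14.5% and 17.5% of all genes. There edgeR gave the 8 genes values below 0, apart from *Idh3b* at 0.0 in wild type.

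**Figure D3:**
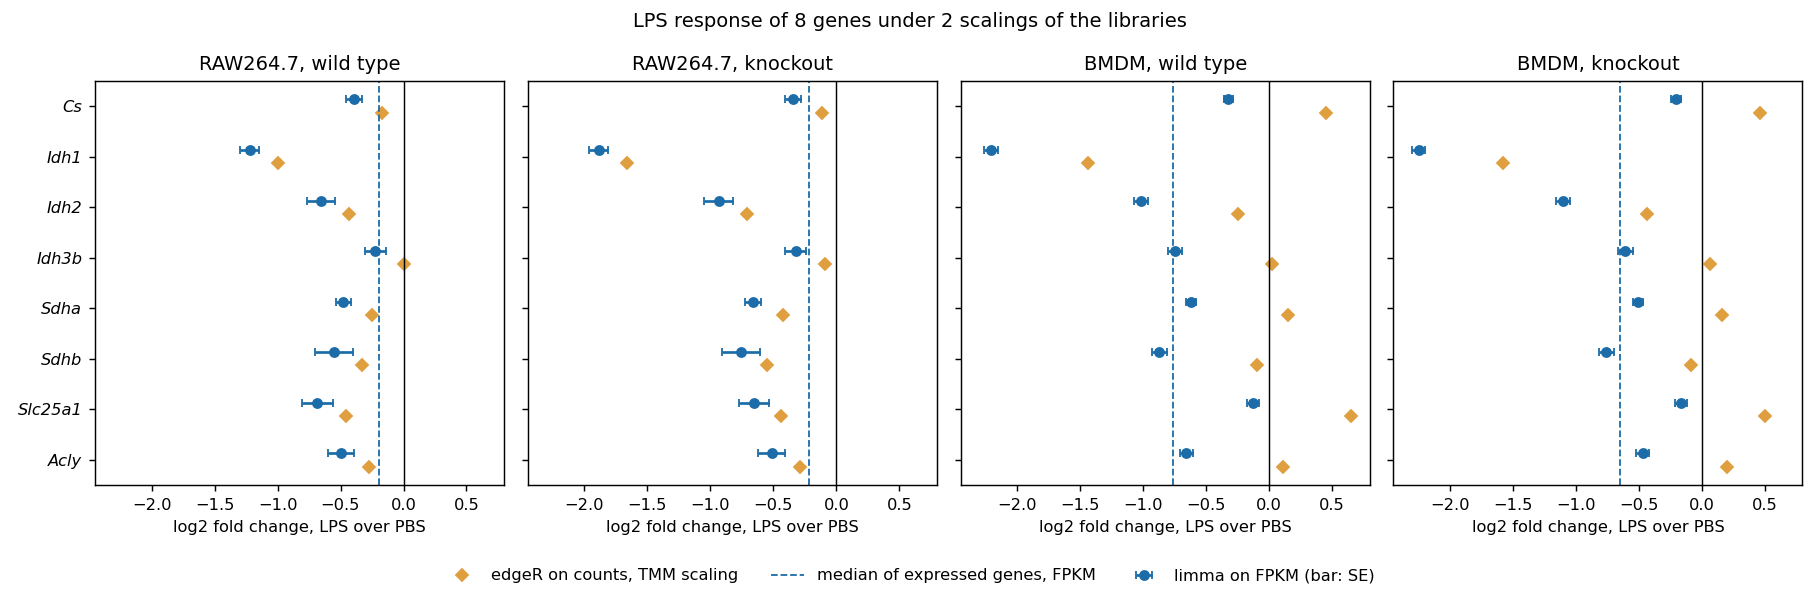
Log2 fold change with LPS of the 8 genes other than *Acod1*, in 4 panels by cell type and genotype as labelled, from limma on FPKM (blue points, bars SE) and from edgeR on counts with TMM scaling (orange diamonds), with a dashed line at the median of all expressed genes on the FPKM scale and a solid line at 0. *Idh1* lies left of both lines in every panel, and in BMDMs the edgeR values of *Cs*, *Idh3b*, *Sdha*, *Slc25a1* and *Acly* lie right of 0.

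Across genotypes with PBS, 2 of the 9 genes were called lower in RAW264.7 libraries labelled knockout (*Acod1* and *Idh1*), where 3.77% of all genes were, and 0 of 9 higher, where 4.79% were. Without the library that stood apart *Sdhb* and *Slc25a1* (-0.59, adjusted p = 0.000103) were called lower too, which makes 4. The calls over all genes rose as well, from 1007 of 26740 lower with that library to 2153 of 26538 without it. With LPS 3 of 9 were called lower (*Idh1*, *Idh2* and *Sdhb*; 7.60% of all genes) and 0 of 9 higher (9.73%). Of the others *Slc25a1* was lower by -0.41 (SE 0.12, adjusted p = 0.0331), under 1.5-fold. The shares of all genes again include genes of low level. When only genes reaching 1 FPKM in 3 or more libraries were tested, 967 of 12290 were called lower with PBS and 1428 higher. With LPS it was 1789 lower and 2028 higher, and the calls of the 9 genes stayed the same under both treatments. The library totals of FPKM were lower in most libraries labelled knockout, and on the TPM scale, which sets these totals equal, *Idh1* (-1.17) alone was called with LPS and *Acod1* (-1.70) alone with PBS. TPM moved the median of all expressed genes to 0.23 with LPS and 0.22 with PBS, from 0.0024 and 0.03 by FPKM. On the TPM scale 1222 of 26740 genes were called lower with LPS and 3658 higher, and 696 lower with PBS and 1541 higher.

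In BMDMs 0 of the 9 genes were called between genotypes with PBS, where 1.82% of all genes were called in either direction, and 0 of 9 with LPS, where 4.76% were. At an unadjusted p under 0.05 limma gave 2 of the 9 with PBS, against 14.7% of all genes, and 4 of the 9 with LPS, against 27.4%. The edgeR test called 0 of the 9 in both, against 3.74% and 9.10% of all genes. With LPS *Cs* (0.16, adjusted p = 0.0131), *Sdha* (0.20) and *Acly* (0.26, adjusted p = 0.00644) were higher in knockout BMDMs with the groups apart by an adjusted p under 0.05 alone, at a median of 0.14 for all expressed genes. By edgeR on counts *Acly* was at 0.11 (adjusted p = 0.0277) and *Cs* at 0.02 (adjusted p = 0.668).

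**Figure D4:**
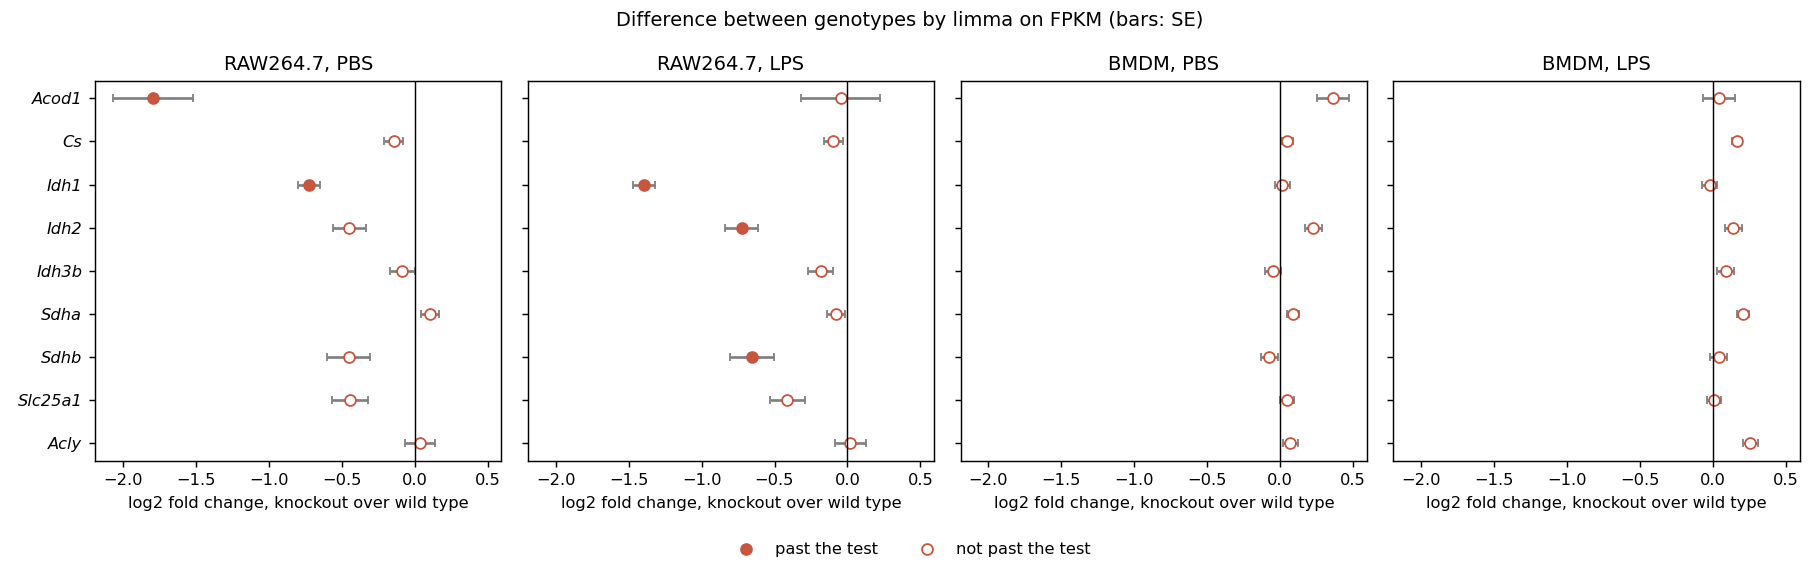
Log2 difference between libraries labelled knockout and wild type for the 9 genes, by limma on log2(FPKM + 0.1), in 4 panels by cell type and treatment, with bars for the SE and filled points where the gene passed the test. The 5 filled points are *Acod1* and *Idh1* in RAW264.7 with PBS and *Idh1*, *Idh2* and *Sdhb* in RAW264.7 with LPS.

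The genotype by LPS interaction was called for 1 of the 9 genes in RAW264.7 (*Idh1*), against 1.95% of all genes in either direction, and for 0 of 9 in BMDMs, against 2.93%, where 1 had an unadjusted p under 0.05 (18.3% of all) and edgeR called 0 (5.66%). For *Acod1* in RAW264.7 it was 1.75 (adjusted p = 0.0552, limma), which did not pass, and 1.86 (adjusted p = 0.00339) by edgeR on counts, which did. The PBS levels behind it rest on few reads, with 23 to 44 counts in those labelled knockout and 68 to 121 in wild type.

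Ratios of 2 genes within a library do not depend on how libraries are scaled, and are given with no test. *Idh1* to *Idh2* was 0.50 ± 0.0143 with PBS and 0.338 ± 0.0190 with LPS in wild-type RAW264.7 libraries, and 0.413 ± 0.0401 and 0.212 ± 0.0131 in those labelled knockout (SD, n = 3). In BMDMs it was 3.51 ± 0.145 and 1.53 ± 0.0788 in wild type and 3.03 ± 0.101 and 1.37 ± 0.131 in knockout. BMDMs thus held more *Idh1* than *Idh2* in all 12 libraries and RAW264.7 cells less in all 12, and the ratio was lower in every LPS library than in any PBS library of the same cell type.

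*Sdha* to *Sdhb* was 0.808 ± 0.00757 with PBS and 0.852 ± 0.0344 with LPS in wild-type RAW264.7 libraries and 1.27 ± 0.0413 with LPS in those labelled knockout. With PBS the libraries labelled knockout had ratios of 0.909, 1.37 and 1.35, the first being the library that stood apart. In BMDMs the ratio was 1.32 ± 0.0607 and 1.58 ± 0.0896 in wild type, with PBS and LPS, and 1.48 ± 0.0331 and 1.77 ± 0.0550 in knockout. *Slc25a1* to *Acly* went down with LPS in wild-type RAW264.7 libraries, from 0.758 ± 0.00920 to 0.666 ± 0.0177, and up in BMDMs, from 0.562 ± 0.0133 to 0.816 ± 0.0989 in wild type and from 0.552 ± 0.0144 to 0.683 ± 0.0124 in knockout. RAW264.7 libraries labelled knockout had 0.805 (the library that stood apart), 0.465 and 0.429 with PBS and 0.504, 0.490 and 0.485 with LPS. Their direction thus turned on that library.

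*Idh3b* to *Cs* was 0.685 ± 0.0272 with PBS and 0.510 ± 0.0319 with LPS in wild-type BMDMs, and 0.639 ± 0.0162 and 0.483 ± 0.0155 in knockout, while in RAW264.7 all 12 libraries lay between 0.561 and 0.666. *Acod1* to *Cs* was 0.0342 ± 0.00899 with PBS and 36.0 ± 1.08 with LPS in wild-type RAW264.7 libraries, and 0.0393 ± 0.00283 and 72.3 ± 1.16 in wild-type BMDMs. Those labelled knockout had 37.2 ± 0.419 with LPS in RAW264.7 and 66.3 ± 1.09 in BMDMs, so that in BMDMs the 2 genotypes, at 65.5 to 67.5 and 71.2 to 73.5, did not overlap.

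**Figure D5:**
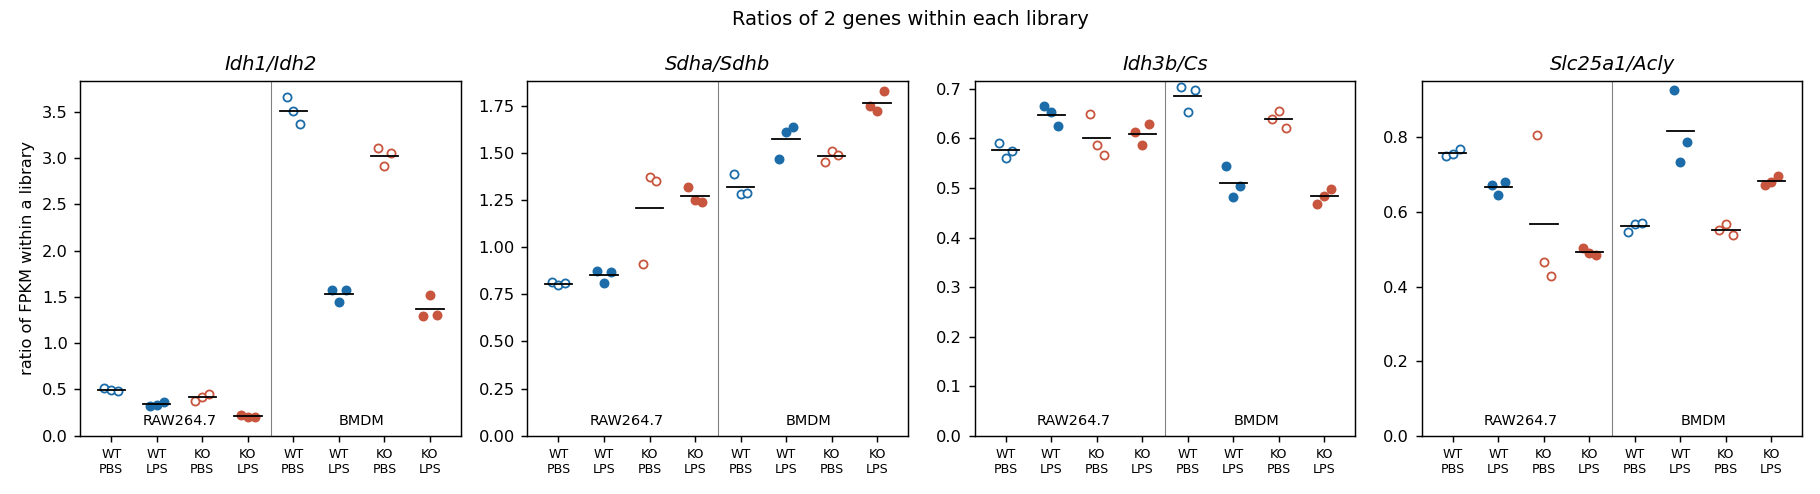
Ratios of FPKM of 2 genes within each library, from 0, by cell type, genotype (WT, wild type in blue; KO, labelled knockout in red) and treatment (open points PBS, filled points LPS), with a line at each group's mean. *Idh1*/*Idh2* is 3.37 to 3.66 in wild-type BMDMs with PBS and 1.44 to 1.58 with LPS, and *Sdha*/*Sdhb* is 1.24 to 1.32 in labelled-knockout RAW264.7 libraries with LPS against 0.812 to 0.874 in wild type.

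The 9 genes belong to a wider list of 44 genes of the citrate cycle, pyruvate entry, citrate export and itaconate, of which 42 could be tested in RAW264.7 and 43 in BMDMs. With LPS 1 was called higher and 14 lower in wild-type RAW264.7 libraries, where 5.80% and 12.5% of all genes were, and 1 and 18 in those labelled knockout (7.45% and 14.6%). In BMDMs 2 were called higher and 30 lower in wild type (7.94% and 32.5% of all genes), and 1 and 19 in knockout (8.02% and 30.9%). When only genes reaching 1 FPKM in 3 or more libraries were tested, 6487 and 5999 of 11492 were called lower in BMDMs, wild type first. In RAW264.7 it was 2931 and 3351 of 12290. The list was not counted in that way, so its share of lower calls is not set against these. By edgeR on counts the list's calls became 1 higher and 8 lower (14.5% and 16.4% of all genes) and 1 and 9 (17.5% and 20.2%) in RAW264.7. In BMDMs they became 4 and 7 (25.1% and 30.8%) and 2 and 5 (24.0% and 29.5%), each of 42 and with wild type first. The list's median log2 fold change was -0.36, -0.49, -0.73 and -0.51 in that order by limma, against -0.20, -0.22, -0.76 and -0.65 for all expressed genes. By edgeR it was -0.14, -0.28, 0.03 and 0.14, against 0.01, -0.02, -0.01 and 0.0.

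Among list genes called in the same direction in both cell types, the rule for naming genes took *Acod1*, *Idh1*, *Pdk2* and *Pdp1* in both genotypes, *Pdk2* on a fitted RAW264.7 change that rests on few counts. *Pdk2* encodes a kinase that switches off pyruvate dehydrogenase, and *Pdp1* a phosphatase that switches it on. *Pdp1* fell from 9.86 to 10.7 FPKM to between 2.48 and 2.72 in wild-type BMDMs and from 2.96 to 3.63 to between 0.94 and 1.16 in wild-type RAW264.7 libraries, log2 fold changes of -1.93 and -1.55 (adjusted p = 8.16e-10 and 2.97e-06, limma). In knockout BMDMs and RAW264.7 libraries labelled knockout its changes were -1.91 and -1.09. *Pdk2* fell from 3.02 to 3.37 FPKM to between 0.15 and 0.18 in wild-type BMDMs (-3.61, adjusted p = 1.06e-08), and in RAW264.7 it had 10 to 29 counts in PBS libraries and 0 to 2 in LPS libraries, too few to give a fold.

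Between genotypes with PBS, 0 list genes were called higher and 3 lower in RAW264.7 libraries labelled knockout (4.79% and 3.77% of all genes), the third being *Acss2*, which makes acetyl-CoA from acetate, and 0 were called in BMDMs by limma (1.82% of all genes), where edgeR called 1, *Acss2*, lower. With LPS 3 were called higher (*Acaca*, *Fasn* and *Pdp2*) and 7 lower in RAW264.7 libraries labelled knockout (9.73% and 7.60% of all genes), and 2 higher (*Fasn* and *Pdk1*) and 1 lower (*Pdk3*) in knockout BMDMs (4.76% in either direction). *Acss2*, *Acaca*, *Pdp2*, *Pdk1* and *Pdk3* are named here after their values were seen. *Fasn*, fatty acid synthase, which uses the acetyl-CoA made by *Acly*, was the 1 list gene called in the same direction between genotypes in both cell types. With LPS it was at 73.4 to 74.7 FPKM in labelled-knockout RAW264.7 libraries against 41.2 to 43.1 in wild type (0.81, adjusted p = 0.0106), and at 3.76 to 4.11 in knockout BMDMs against 1.38 to 1.72 (1.25, adjusted p = 1.50e-05), with no overlap in either. The share of all genes called in the same direction in both cell types was not computed, so this count of 1 says nothing particular to the list.

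Over the 12 libraries of a cell type, the genes whose log2 levels were most like those of *Acod1* were *Tnfaip2*, *Cd40*, *Tnip3*, *Ikbke* and *Slc15a3*, of 10357 genes ranked by the lower of the Pearson r in the 2 cell types. Their r lay between 0.996 and 0.997 in RAW264.7 and between 0.995 and 0.999 in BMDMs. For *Idh1* the most alike was *Gltp* (0.998 in RAW264.7, 0.997 in BMDMs), for *Idh2* *Akt1* (0.990, 0.994), for *Sdha* *Ubtf* (0.991, 0.995), for *Sdhb* *Cox7a2l* (0.990, 0.991), for *Cs* *Retreg2* (0.985, 0.983), for *Idh3b* *Dguok* (0.984, 0.989), for *Acly* *Dag1* (0.985, 0.985) and for *Slc25a1* *Tecr* (0.981, 0.954). The libraries share 4 groups, LPS and PBS, and the r are a description. Between members r was highest for *Idh1* with *Idh2* in RAW264.7 (0.984) and for *Idh1* with *Sdhb* in BMDMs (0.991), and *Acod1* ran against *Idh1* at -0.774 and -0.999.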

How the data were processed

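RNA-seq of 24 libraries was analysed. Poly(A) libraries were made from Trizol RNA, and each cell type has its own table, in which the authors deposited read counts and FPKM per gene, so the deposited FPKM are counts scaled by gene length and library size. FPKM remade from counts, length and total matched within 1% for 99.9% (RAW264.7) and 99.5% (BMDMs) of values resting on more than 50 counts. The submitters' processing notes name mm10, with the aligner and counter not given in the sources used here. Groups followed the sample titles, which the genotype tag contradicts in 12 libraries.

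Members and lists were chosen with earlier results of these data known. The names followed a rule: the 9 members, list genes called in the same direction in both cell types (at most 4 per comparison), the 5 genes most like *Acod1* and 1 for each other member, and *Olfml3*. *Acss2*, *Acaca*, *Pdp2*, *Pdk1* and *Pdk3* fall outside it and were named after their values were seen, as were marker genes. limma 3.58.1 in R 4.3.3 fitted 4 group means per cell type to log2(FPKM + 0.1) for genes above 0 in at least 1 library. As in the study's methods, calls needed a fold change of at least 1.5 and a Benjamini-Hochberg adjusted p under 0.05. Comparisons within a cell type share libraries. All tests were two-sided. Alternatives were pseudocounts of 0.01 and 1, an FPKM of at least 1 in 3 libraries, TPM, median-ratio scaling, edgeR 4.0.16 quasi-likelihood on the deposited counts with and without a filter (10 counts), DESeq2 1.42.0, the adjusted p alone, the 2 groups alone, a replicate block and each library left out. Cell types stand in separate tables, so differences between them were not tested.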

Additional observations from a re-analysis of the deposited data

Results flagged for a closer look

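The fall of *Idh1* with LPS differed between RAW264.7 genotypes by a test of the difference itself, at -0.67 on the log2 scale (adjusted p = 0.011, limma, interaction term). The macrophage markers, at 856.6 to 889.5 summed FPKM in libraries labelled knockout with LPS and 2745 to 2887 in wild type, moved with the RAW264.7 genotype as well, mostly through *Lyz2* (392.4 to 433.2 and 2118.2 to 2264.2), and their part in the result was not tested.

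For 5 members, under at least 1 treatment, every RAW264.7 library labelled knockout lay below every wild-type library while every knockout BMDM library lay above. This difference between cell types was not tested. The share of all genes with the same pattern was not computed, so the count says nothing particular to these members. With PBS this held for *Idh2* (log2 difference -0.45 in RAW264.7, 0.23 in BMDMs), *Slc25a1* (-0.44, 0.05) and *Cs* (-0.14, 0.05). With LPS it held for *Idh2* (-0.73, 0.14), *Cs* (-0.10, 0.16), *Sdha* (-0.08, 0.20) and *Acod1* (-0.05, 0.04). Of these values *Idh2* in RAW264.7 with LPS alone passed the test of its own comparison. Relative to the median of all expressed genes the BMDM value with LPS was 0.02 for *Cs*, 0.06 for *Sdha*, -0.0041 for *Idh2* and -0.11 for *Acod1*.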

How the results depend on the processing

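Over 11 alternatives that keep all libraries, 828 of 972 values of single members kept their direction and their side of the test, 44 lost a call, 23 gained one, 43 reversed with an adjusted p under 0.05 in at least 1 of the settings, and 34 changed sign with an adjusted p of at least 0.05 under both settings. With 1 library left out, 625 of 648 kept both, 3 lost and 5 gained a call.

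The number of the 9 genes called with LPS fell from 4 to 2 in wild-type RAW264.7 libraries, from 6 to 3 in those labelled knockout, from 7 to 3 in wild-type BMDMs and from 5 to 2 in knockout BMDMs, each under edgeR, edgeR without a filter, DESeq2 and median-ratio scaling. By adjusted p alone it was 8 in wild-type RAW264.7 libraries, where 2031 of 26740 genes were called higher and 4503 lower. It was 9 in knockout BMDMs, where 2849 of 26973 genes were called higher and 10669 lower. Between RAW264.7 genotypes with PBS it was 2, and 1 with TPM, 1 with the 2 groups alone and 4 by adjusted p alone, and with LPS it was 3, and 1 with TPM. With PBS the 4 were lower, as were 1434 of 26740 genes by adjusted p alone, with 1810 higher. Between BMDM genotypes with LPS it was 0, and 3 by adjusted p alone. These 3 were higher, as were 3672 of 26973 genes by that rule, with 1132 lower. The RAW264.7 interaction was called for 1 gene, and for 2 (with *Acod1*) under edgeR with and without a filter, DESeq2, a pseudocount of 1 and the FPKM filter. Over all genes, edgeR called it higher for 183 and lower for 257 of 13757, and without its filter for 229 and 340 of 26787. DESeq2 called 239 higher and 300 lower of 13284. The pseudocount of 1 gave 233 and 280 of 26740, and the FPKM filter 202 and 284 of 12290. With 1 library left out the counts ran from 2 to 4 (PBS) and 3 to 3 (LPS) between RAW264.7 genotypes, 4 to 4 and 5 to 6 with LPS in RAW264.7 wild type and labelled knockout, 7 to 7 and 4 to 5 in BMDMs wild type and knockout, 1 to 2 for the RAW264.7 interaction, and were 0 for the 3 other BMDM comparisons. *Acod1* joined that interaction without replicate 3 of the PBS libraries labelled knockout (2.08) or without wild-type PBS replicate 1 (1.97), and *Idh3b* left the knockout BMDM calls without LPS replicate 1 (-0.57). The 4 between RAW264.7 genotypes came without the library that stood apart, where 2153 of 26538 genes were called lower.

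In the order edgeR, edgeR without a filter, DESeq2 and median-ratio scaling, values with LPS in wild-type BMDMs turned from below to above 0 for *Cs* (0.45, 0.39, 0.48, 0.48), *Sdha* (0.15, 0.09, 0.18, 0.18), *Slc25a1* (0.65, 0.59, 0.68, 0.67) and *Acly* (0.11, 0.05, 0.15, 0.14), and in knockout BMDMs for *Cs* (0.46, 0.40, 0.49, 0.48), *Sdha* (0.16, 0.10, 0.19, 0.18), *Slc25a1* (0.50, 0.44, 0.53, 0.52) and *Acly* (0.20, 0.14, 0.22, 0.22). *Idh3b* did so under edgeR with the filter, DESeq2 and median-ratio scaling (0.02, 0.06, 0.05 in wild type and 0.06, 0.08, 0.08 in knockout). Between BMDM genotypes with LPS *Acod1* turned to -0.10, -0.10 and -0.12 under edgeR, edgeR without a filter and DESeq2, and *Slc25a1* to -0.14 under edgeR and -0.15 under DESeq2. These alternatives set the median of all genes near 0, where the deposited scaling leaves it at -0.76 and -0.65 in BMDMs. The share of higher among called genes with LPS was 19.6% and 20.6% in wild-type and knockout BMDMs and 44.9% and 44.8% by edgeR, and 31.7% and 33.8% in RAW264.7 and 46.8% and 46.4% by edgeR.

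The labels give each group replicates 1 to 3. Deviations of same-numbered libraries correlated at -0.001 on average in RAW264.7 and 0.034 in BMDMs, and those of differently numbered libraries at 0.001 and -0.017. Such weak averages cannot decide whether the numbers pair the libraries, which the main fit treated as unpaired. With the replicate block the count of members called was 2 and 3 between RAW264.7 genotypes, 4 and 6 with LPS in RAW264.7, 7 and 5 in BMDMs and 1 for the RAW264.7 interaction, as without it.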
